A study of Arachis hypogaea with 14 samples.

Results

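Predicted candidate microRNAs of 20 or 21 nt were examined in developing peanut seeds. They are the entries of the authors' small RNA table that carry the prefix PC (predicted candidate), which marks a sequence the table does not tie to a known miRNA, and whose listed sequence is 20 or 21 nt long. Of 795 distinct sequences in the table, 65 met this rule, 63 of them of 21 nt and 2 of 20 nt. Length and name chose them, and no expression value was used in that choice. Each of the 65 reached 10 on the authors' scale of normalized reads in at least 1 library. The authors' table may thus itself leave out lower sequences, which was not tested. The authors' own abundance class was high for 2 of them and middle for 63.

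Seeds came from 2 recombinant inbred peanut lines of the 8th generation, 8107 with very large pods and 8106 with pods of medium size, and were sampled at 35 and at 15 days after flowering (DAF). The groups are 8107 at 35 DAF, 8107 at 15 DAF, 8106 at 35 DAF and 8106 at 15 DAF, each with 3 small RNA libraries made from total RNA of whole fresh seeds. No transgene or treatment is named, and each pod type is represented by 1 line, so pod size cannot be told apart from other differences between the lines. The labels do not say whether replicates came from separate plants, so the p-values rest on the variation among the 3 libraries of a group, and that variation may be technical.

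Plant microRNAs are cut by Dicer-like enzymes from a folded precursor as a duplex of its 5′ and 3′ arms, most often 21 nt long, and 1 strand of the duplex is loaded into an Argonaute protein. The loaded strand pairs with transcripts nearly end to end, and the transcript is typically cut opposite the middle of the small RNA, which leaves a 5′ end that degradome sequencing can record. In seeds, conserved families of this kind act on transcription factors that control embryo patterning and the passage from growth to storage. No function is known here for the predicted candidates, so they are ordered below by their sequences, their levels and the transcripts listed for them.

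The sequences that the results turn on are printed 5′ to 3′ with T for U, as deposited, and capitals mark the seed, bases 2 to 8. The first set holds candidates with the widest gaps between the lines at 35 DAF.
PC-3p-8612_823: cTATTGAGccgtgccaatatc
PC-5p-15503_485: aTCTTGCAtgcaaaaatgatg
PC-5p-53453_150: tCTTATTGtgcattcgttctc
PC-3p-19376_397: aGGTGCCGgtgcatttgcagg
PC-5p-118138_60: tGTTGGTCagaaaggaactta
PC-5p-102778_72: cATCAACTgatgttattctca
PC-3p-3730_1713: gAGGCCTTtttgggagggagt
PC-3p-3594_1757: aTGGGAGCctttttgggtcgt
PC-5p-2548_2316: gTTCCCCGcagacacttcaga
PC-5p-37033_217: tTCCTGAAaaaccaccacttc
The next set holds the most abundant candidates and those with a partner on the other arm of the same predicted hairpin.
PC-5p-65_46562: tTGATAAAtgggagagtttcc
PC-3p-1045_4577: aAACTCTCccatttatcaacc
PC-3p-107_28599: cTGGAGGCctttgaaggagac
PC-5p-5062_1316: tTTCAGCAcaaagggacagaa
PC-3p-47793_169: tTCTGTCCctttgtcttgaaa
PC-3p-2930_2072: cCTATTTCggaagaacagcca
PC-5p-158914_39: tGTTCTTCcgaaataggagtg
The last set holds 3 candidates listed at 15 DAF alone and 4 with sites in the degradome table.
PC-5p-69905_114: tCAGTCGGcatcatcttctta
PC-3p-38261_210: tCCAGTCAggatgtgtcgtcc
PC-5p-55460_145: gACACTGAgtcttgcgataac
PC-3p-55057_146: cTTTCTTCttcctctctttgc
PC-5p-5478_1230: tCCGTCAAattcatgttggtc
PC-5p-40313_200: tTAGATTTtttaccgttatt
PC-3p-135887_49: tGGCACACagaagccatcttc

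No pair among the 65 shared a seed, so they do not form seed families. T was the first base of 29 of them (44.6%), C of 16, A of 13 and G of 7. Predicted candidates of 22 nt began with T in 63.6% of 33 sequences, and those of 23 to 25 nt began with A in 76.3% of 279. The 5′ arm gave 32 members and the 3′ arm 33, with a median GC content of 42.9%. Of 2080 pairs of members, 7 shared a stretch of 10 or more bases. PC-5p-118138_60 and PC-5p-245417_18 shared 20 bases with a shift of 1 base, and PC-3p-47793_169 and PC-3p-48081_168 shared 18 bases with a shift of 3, so the members of each of these pairs are uncertain as separate molecules. PC-3p-3730_1713 and PC-3p-3594_1757 shared 11 bases, printed here in capitals.
PC-3p-3730_1713: gagGCCTTTTTGGGagggagt
PC-3p-3594_1757: atgggaGCCTTTTTGGGtcgt

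A few candidates lay close to named miRNAs in the same table. PC-3p-8612_823 differed at 2 of 21 aligned bases from mdm-MIR171f-p3, an entry named for the miR171 family, which in Arabidopsis cuts transcripts of GRAS transcription factors of the SCL6 kind. PC-3p-19376_397 differed at 3 of 21 bases from gma-MIR530e-p3_1ss11GA, named for a soybean miR530 hairpin arm. Capitals mark the differing bases.
PC-3p-8612_823: CTattgagccgtgccaatatc
mdm-MIR171f-p3: TGattgagccgtgccaatatc
PC-3p-19376_397: aggtgcCggtGcatTtgcagg
gma-MIR530e-p3_1ss11GA: aggtgcAggtAcatCtgcagg
PC-5p-274564_14 carried the same seed as entries named miR398, and PC-5p-110995_65 differed at 2 of 19 overlapping bases from an arm named for MIR399. Both were low and did not pass the filter described next.

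Values are normalized reads, the scale the authors deposited, and the library totals over all sequences lay between 464658 and 1086380. Nearly all values of a library were whole multiples of 1 step, and the lowest listed value was 6 such steps in 11 of 12 libraries, so a sequence at 0 in the table can still have been read a few times in that library. Mean totals were 496115 in 8107 and 1030020 in 8106 at 35 DAF, and 623414 in 8107 and 675710 in 8106 at 15 DAF, so the scaling bears most on the line comparison at 35 DAF. The 65 members together took 1.85 ± 0.0252% of the total in 8107 at 35 DAF, 1.04 ± 0.0247% in 8107 at 15 DAF, 0.777 ± 0.0389% in 8106 at 35 DAF and 0.889 ± 0.0165% in 8106 at 15 DAF (SD, n = 3 each). Their summed normalized reads were 9173 ± 474 and 6480 ± 316 in 8107 at 35 and 15 DAF, and 7997 ± 209 and 6008 ± 224 in 8106 at 35 and 15 DAF. Member levels spanned a wide range, with means over the 12 libraries from 1.04 to 2597 normalized reads and a median of 10.9. Of the 65, 24 were above 0 in every library and 11 in 3 libraries or fewer. Tests used entries at 10 or more normalized reads in at least 3 of 12 libraries, which 42 members passed and 23 did not, and differences below are of log2(normalized reads + 1), fitted with limma and adjusted by Benjamini-Hochberg over all 395 entries tested. Of the 42, 8 members passed the filter only through the group where they were highest, 5 through 8107 at 35 DAF and 3 through 8106 at 15 DAF, as did 95 of all 395 entries. Such a member had to be high in that group to be tested, so no p-value is given for it in comparisons with that group. The 5 are PC-5p-53453_150, PC-5p-118138_60, PC-5p-102778_72, PC-3p-70396_113 and PC-3p-105678_70, and the 3 are PC-5p-55460_145, PC-3p-48081_168 and PC-3p-106691_69.

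**Figure D1:**
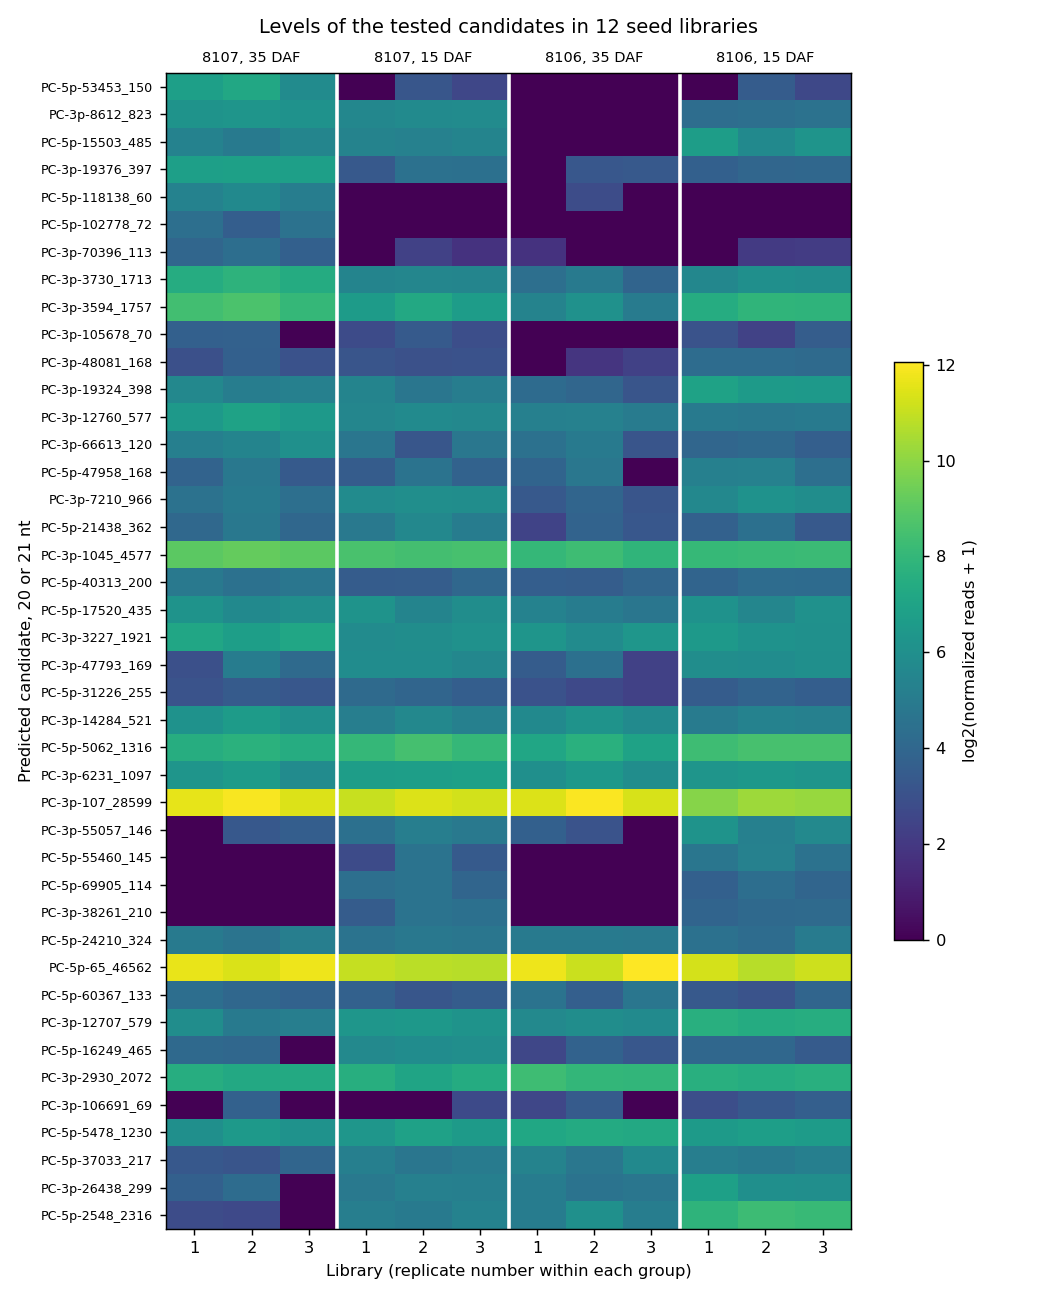
Heat map of log2(normalized reads + 1) for the 42 tested candidates (lines of the map, ordered by the 8107 minus 8106 difference at 35 DAF) in 12 libraries (columns, by group). PC-5p-65_46562 and PC-3p-107_28599 are the brightest in all groups, and the darkest cells are values listed at 0.

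PC-5p-65_46562 and PC-3p-107_28599, the pair the authors class as high, supplied 52.1 to 83.2% of the members' summed reads in a library. PC-5p-65_46562 had 3182, 2634 and 3478 normalized reads in 8107 at 35 DAF and 2029.8, 1770.2 and 1737 in 8107 at 15 DAF. It had 3463, 2179 and 4265 in 8106 at 35 DAF and 2457, 1730.3 and 2242 in 8106 at 15 DAF. The stages did not overlap in 8107 and overlapped in 8106. It rose with stage in 8107 by 0.74 ± 0.23 (log2 difference ± SE, limma adjusted p = 0.0254), a call that ended without replicate 1 or 3 at 35 DAF or replicate 2 or 3 at 15 DAF of that line (limma adjusted p = 0.0679 to 0.0860). In 8106 the difference was 0.58 (limma adjusted p = 0.0782, and 0.0134 with the replicate number as a block).

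PC-3p-107_28599 had 3136, 3891 and 2746 normalized reads in 8107 at 35 DAF and 2775, 4087 and 2551 in 8106 at 35 DAF. At 15 DAF it had 2129, 2787 and 2409 in 8107 and 939.8, 1267 and 1188 in 8106. The lines overlapped at 35 DAF, and the 8106 libraries of 15 DAF lay below all others. It was higher in 8107 at 15 DAF by 1.11 ± 0.21 (limma adjusted p = 0.00436), rose with stage in 8106 by 1.45 ± 0.21 (limma adjusted p = 0.000251), and differed in 8107 between stages by 0.41 (limma adjusted p = 0.132, and 0.0172 with the block). The difference of the stage changes, 8107 minus 8106, was −1.04 (limma adjusted p = 0.0155), and with library totals set equal this gap was −0.10 (limma adjusted p = 0.748).

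At 35 DAF the large-pod line carried more of many candidates. Of 42 members tested, 18 were higher and 4 lower in 8107 than in 8106 (52.4% passed), against 52.4% of all 395 entries, 32.2% higher and 20.3% lower, so the share that passed matched the background and only its split into higher and lower was different from it, with no test of that difference. The median log2 difference was 0.74 for members and 0.03 for all tested entries, and 0.60 and 0.02 when entries with a group wholly at 0 were left out. With equal totals 29 members were higher and 1 lower (47.3% and 8.61% of all entries), under quantile normalization 12 and 6 (22.5% and 25.8%), and after centring on the median 13 and 6 (23.5% and 28.1%), while the median of all entries moved to 1.01, −0.38 and −0.36. Of the 22 calls, 13 held under those 3 scalings. Without the entries that passed the filter through 1 group, 12 of 34 members were higher and 4 lower, 35.3% and 11.8%, against 31.3% and 22.7% of 300 entries.

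PC-3p-8612_823, the candidate near miR171, had 71.6, 77.4 and 69.7 normalized reads in 8107 at 35 DAF and 0 in each of the 3 libraries of 8106 at 35 DAF (limma adjusted p = 5.24e-09). A group listed at 0 throughout shows no spread, so here and below p-values with such a group may be too small. At 15 DAF PC-3p-8612_823 had 46.5, 54.1 and 54.8 in 8107 and 19.1, 20.4 and 22.7 in 8106. The lines did not overlap at either stage, with 8107 the higher at both. It was higher in 8107 at 15 DAF as well, by 1.28 ± 0.22 (limma adjusted p = 0.00247), though not with quantile normalization (limma adjusted p = 0.0601). The named entry mdm-MIR171f-p3 averaged 670.3 ± 103 in 8107 and 138 ± 15.2 in 8106 at 35 DAF, and 999 ± 110.0 in 8107 and 555 ± 35.2 in 8106 at 15 DAF. Another near match, gma-miR171n_1ss20TC, went the other way at 35 DAF, with 517 ± 91.7 in 8107 and 1449 ± 348 in 8106 (log2 difference −1.47, limma adjusted p = 0.000120), and lja-miR171d-5p averaged 41.0 ± 7.80 in 8107 and 20.4 ± 3.43 in 8106 (0.97, limma adjusted p = 0.0129).

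PC-5p-15503_485 had 40.3, 29.5 and 43.3 normalized reads in 8107 at 35 DAF, against 0 in all 3 libraries of 8106 at 35 DAF (limma adjusted p = 1.41e-07). At 15 DAF it had 40.8, 38.3 and 41.9 in 8107 and 104, 51.2 and 74.7 in 8106. In 8107 the stages overlapped, with a log2 difference of −0.11 (limma adjusted p = 0.776), while 8106 was above every 8107 library at 15 DAF and listed at 0 at 35 DAF. PC-5p-53453_150 had 110.3, 148 and 56.1 normalized reads in 8107 at 35 DAF and was listed at 0 in 8106 at 35 DAF. At 15 DAF it had 0, 8.22 and 4.83 in 8107 and 0, 10.4 and 5.04 in 8106. Every library of 8107 at 35 DAF was above all 9 others, but the candidate passed the filter only through that group.

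PC-5p-102778_72 had 20.1, 11.2 and 22.4 normalized reads in 8107 at 35 DAF and was listed at 0 in the other 9 libraries. PC-5p-118138_60 had 40.3, 51.0 and 33.6 in 8107 at 35 DAF and 0, 6.03 and 0 in 8106 at 35 DAF, and was listed at 0 at 15 DAF in both lines. PC-3p-19376_397, the candidate near a miR530 arm, had 110.3, 116 and 111 in 8107 and 0, 8.71 and 9.49 in 8106 at 35 DAF. PC-5p-102778_72 and PC-5p-118138_60 passed the filter only through 8107 at 35 DAF, so their single high group was set by the filter. For PC-3p-19376_397, which did not pass that way, the lines did not overlap at 35 DAF. At 15 DAF PC-3p-19376_397 had 9.49, 21.9 and 20.9 in 8107 and 12.1, 14.5 and 15.1 in 8106. Its difference at 35 DAF was 4.60 ± 0.77 (limma adjusted p = 0.000572). The named entry near it, gma-MIR530e-p3_1ss11GA, went the other way, with 33.5 ± 15.3 in 8107 and 66.0 ± 24.4 in 8106 at 35 DAF (log2 difference −0.99, limma adjusted p = 0.0392).

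PC-3p-3594_1757 and PC-3p-3730_1713, which share the 11-base stretch, were listed in every library. PC-3p-3594_1757 had 334, 393 and 263 normalized reads in 8107 and 40.4, 67.0 and 31.2 in 8106 at 35 DAF, a difference of 2.86 ± 0.29 (limma adjusted p = 1.61e-05). PC-3p-3730_1713 had 178, 219 and 169 in 8107 and 20.2, 29.8 and 13.6 in 8106 at 35 DAF, a difference of 3.15 ± 0.26 (limma adjusted p = 3.04e-06). For both, every 8107 library lay far above every 8106 library. At 15 DAF PC-3p-3594_1757 had 98.7, 152 and 99.1 in 8107 and 176, 233 and 232 in 8106, and PC-3p-3730_1713 had 42.7, 45.2 and 44.3 in 8107 and 46.9, 63.4 and 59.6 in 8106. Here the order of the lines was turned round in every library, without passing the test (limma adjusted p = 0.0536 and 0.390).

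Of the other members higher in 8107 at 35 DAF, 3 are described here. PC-3p-12760_577 was higher in 8107 by 1.48 ± 0.18 at 35 DAF (102 ± 19.5 in 8107 and 35.6 ± 3.97 in 8106) and by 0.72 ± 0.18 at 15 DAF (48.8 ± 4.23 in 8107 and 29.3 ± 1.49 in 8106, SD, n = 3 each). The call at 15 DAF (limma adjusted p = 0.0208) ended without replicate 2 or 3 of 8107 or any single replicate of 8106 at that stage (limma adjusted p = 0.0501 to 0.0709), and also under quantile normalization (0.136) and median centring (0.165). PC-3p-1045_4577 averaged 538 ± 41.2 normalized reads in 8107 and 270.3 ± 38.9 in 8106 at 35 DAF, a difference of 1.00 ± 0.12 (limma adjusted p = 6.17e-05). PC-3p-19324_398 averaged 39.5 ± 7.23 in 8107 and 13.5 ± 4.93 in 8106 at 35 DAF, and 33.9 ± 7.88 in 8107 and 102 ± 18.2 in 8106 at 15 DAF. It was thus higher in 8107 at 35 DAF (limma adjusted p = 0.00186) and lower there at 15 DAF (limma adjusted p = 0.00507), and no other member was called in opposite directions at the stages. The remaining 7 of the 18 had log2 differences of 0.85 to 3.42 and include PC-3p-70396_113 and PC-3p-105678_70. The libraries of PC-3p-105678_70 overlapped between the lines at 35 DAF, with 11.9, 12.5 and 0 in 8107 and 0 in all 3 of 8106.

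The 4 members lower in 8107 at 35 DAF were PC-5p-2548_2316, PC-5p-37033_217, PC-5p-5478_1230 and PC-3p-2930_2072. PC-5p-2548_2316 had 5.96, 5.37 and 0 normalized reads in 8107 and 32.3, 65.3 and 33.2 in 8106 at 35 DAF, and 34.2, 30.1 and 40.3 in 8107 and 229.6, 312 and 277 in 8106 at 15 DAF. Neither stage showed overlap, and 8107 was the lower line at both, with differences of −3.58 ± 0.64 at 35 DAF (limma adjusted p = 0.000943) and −2.93 ± 0.64 at 15 DAF (limma adjusted p = 0.00957). PC-5p-37033_217 had 8.95, 8.06 and 14.4 in 8107 and 40.4, 26.1 and 51.5 in 8106 at 35 DAF, and 36.1, 26.0 and 31.4 in 8107 and 34.4, 29.1 and 36.1 in 8106 at 15 DAF. The lines overlapped at 15 DAF and not at 35 DAF, where the difference was −1.80 ± 0.31 (limma adjusted p = 0.000656), and with equal totals it was −0.80 (limma adjusted p = 0.0632). PC-5p-5478_1230 averaged 75.3 ± 14.2 in 8107 and 152 ± 9.57 in 8106 at 35 DAF, and PC-3p-2930_2072 averaged 164 ± 15.2 in 8107 and 272 ± 38.1 in 8106. The directions of this last pair depended on the scaling, with differences of −1.02 and −0.72 as deposited and 0.02 and 0.33 with equal totals.

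**Figure D2:**
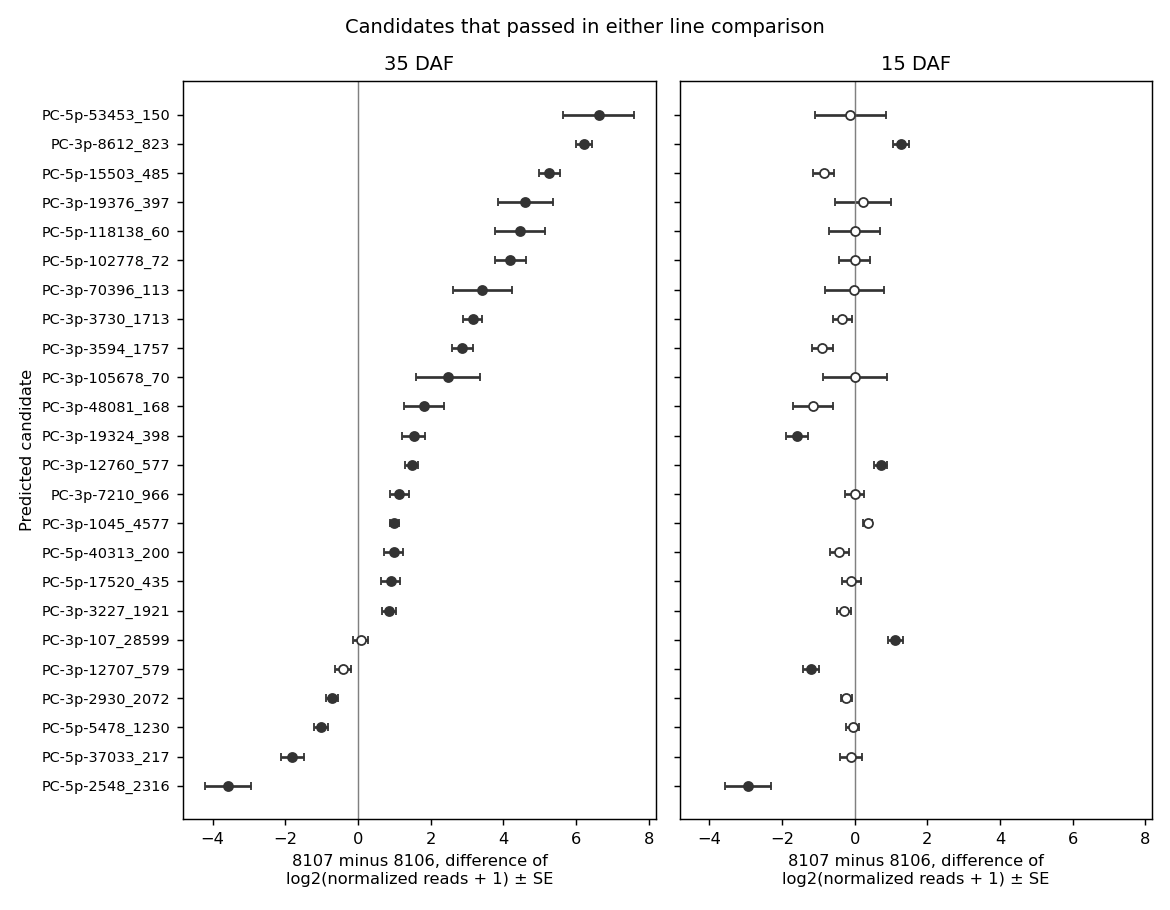
Differences of log2(normalized reads + 1), 8107 minus 8106, with SE from limma, for the 24 candidates that passed in either line comparison, at 35 DAF (left) and 15 DAF (right). Filled points passed at adjusted p under 0.05 and open points did not, and most points right of 0 at 35 DAF lie near 0 at 15 DAF. Values of candidates listed at 0 throughout a group depend on the pseudocount.

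At 15 DAF few candidates differed between the lines. Of 42 members tested, 3 were higher in 8107 (PC-3p-8612_823, PC-3p-107_28599 and PC-3p-12760_577) and 3 lower (PC-5p-2548_2316, PC-3p-19324_398 and PC-3p-12707_579), which is 14.3%, against 22.5% of all entries, 15.7% higher and 6.84% lower. PC-3p-12707_579 had 78.8, 84.9 and 73.3 normalized reads in 8107 and 197, 169.7 and 181 in 8106 at 15 DAF, a difference of −1.20 ± 0.23 (limma adjusted p = 0.00463). Every 8107 library was below every 8106 library. The median difference was −0.07 for members and −0.09 for all entries. The replicate numbers were taken to pair the samples of this comparison, though some libraries with different numbers correlated as well. With the numbers as a block 5 members were higher and 5 lower (36.7% of all entries passed). The added ones were PC-3p-1045_4577 and PC-5p-21438_362 (higher) and PC-5p-15503_485 and PC-3p-3594_1757 (lower). With equal totals 6 members were higher and 3 lower (18.7% and 5.82% of all entries), under quantile normalization 1 and 5 (10.9% and 9.87%) and after centring on the median 2 and 4 (6.84% and 8.86%).

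Between the stages, the 8107 line showed changes in both directions. From the earlier to the later stage 13 of 42 members rose and 11 fell in 8107 (57.1% passed), against 46.3% of all entries, 23% up and 23.3% down. The median difference was 0.14 for members and 0.06 for all entries, and with equal totals the split was 16 up and 8 down (29.1% and 17.7% of all entries). Without the entries that passed the filter through 1 group, 9 of 34 members rose and 10 fell, 26.5% and 29.4%, against 21.3% and 26.3% of 300 entries. The risers included PC-5p-118138_60, PC-5p-102778_72, PC-5p-53453_150, PC-3p-19376_397, PC-3p-3730_1713 and PC-3p-3594_1757, whose values are given above. PC-3p-3730_1713 rose by 2.06 ± 0.26 (limma adjusted p = 0.000118) and PC-3p-3594_1757 by 1.50 ± 0.29 (limma adjusted p = 0.00186). PC-3p-19376_397 rose by 2.70 ± 0.77 (limma adjusted p = 0.0155), a call that ended without replicate 1 of 8107 at 15 DAF (limma adjusted p = 0.0583). With the block 28 members passed (58.2% of all entries), against 24 without it.

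Among other risers in 8107, PC-3p-3227_1921 had 139, 107 and 140.2 normalized reads in 8107 at 35 DAF and 56.0, 58.9 and 67.6 in 8107 at 15 DAF, a rise of 1.06 ± 0.20 (limma adjusted p = 0.00166). In 8106 it had 77.6, 56.3 and 79.3 at 35 DAF and 90.6, 69.9 and 65.9 at 15 DAF, so the stages overlapped there. PC-3p-70396_113 was low, with 14.9, 19.3 and 12 in 8107 at 35 DAF and 0, 4.11 and 2.42 in 8107 at 15 DAF. Its 3 libraries of 8107 at 35 DAF lay above the other 9, which reached 4.11 at most, and it passed the filter through them alone. Among those that fell in 8107, PC-5p-16249_465 had 16.4, 15.2 and 0 at 35 DAF and 50.3, 58.2 and 60.8 at 15 DAF, and 4.85, 12.7 and 8.81 at 35 DAF and 15.3, 15.2 and 10.1 at 15 DAF in 8106. It was thus high in 8107 at 15 DAF, in each library above the other 9, and in 8107 it fell by 3.13 ± 0.92 (limma adjusted p = 0.0188, and 0.0502 and 0.0523 without replicate 2 or 3 of 8107 at 15 DAF). PC-3p-26438_299 had 11.9, 17.9 and 0 in 8107 at 35 DAF and 28.5, 37.0 and 36.2 in 8107 at 15 DAF, with no overlap. In 8107 it fell by 2.47 ± 0.88 (limma adjusted p = 0.0412), a call that ended in 8 of 12 omissions of a single library, any of 8107 at 15 DAF, of 8106 at 15 DAF, or replicate 1 or 3 of 8106 at 35 DAF (limma adjusted p = 0.0519 to 0.102).

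In 8106 most of the members that changed went down. There 4 of 42 members rose and 18 fell (52.4% passed), against 36.2% of all entries, 13.2% up and 23% down. The median difference was −1.09 for members and −0.24 for all entries, and −0.80 and −0.23 when entries with a group wholly at 0 were left out. With equal totals 1 rose and 24 fell (6.08% and 32.2% of all entries). Without the entries that passed the filter through 1 group, 4 of 34 members rose and 15 fell, 11.8% and 44.1%, against 16.7% and 27.3% of 300 entries. The 4 that rose were PC-3p-107_28599, PC-3p-14284_521, PC-5p-5478_1230 and PC-3p-2930_2072, and PC-3p-107_28599 was the 1 of them that kept the call with equal totals. The call of PC-5p-5478_1230 in 8106 (limma adjusted p = 0.0244) also ended without replicate 2 at 35 DAF or replicate 1 or 3 at 15 DAF of 8106 (limma adjusted p = 0.0570 to 0.0754). That of PC-3p-2930_2072 (limma adjusted p = 0.0275) ended without replicate 1 at 35 DAF or any single replicate at 15 DAF of 8106 (limma adjusted p = 0.0566 to 0.113). PC-3p-14284_521 had 70.1, 98.5 and 65.7 normalized reads in 8107 at 35 DAF and 34.2, 47.9 and 37.0 in 8107 at 15 DAF, and 52.5, 73.0 and 54.2 in 8106 at 35 DAF and 31.6, 40.2 and 36.9 in 8106 at 15 DAF. It was the single member that rose in both lines, by 0.95 ± 0.23 in 8107 (limma adjusted p = 0.00602) and 0.70 ± 0.23 in 8106 (limma adjusted p = 0.0340). The call in 8106 ended without replicate 2 at 35 DAF or replicate 1 or 3 at 15 DAF of 8106 (limma adjusted p = 0.0817 to 0.112).

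The same 8 members fell in both lines. PC-5p-69905_114 had 0 in each of the 6 libraries of 35 DAF, against 19.9, 23.3 and 14.5 normalized reads in 8107 and 12.1, 19.4 and 14.3 in 8106 at 15 DAF (limma adjusted p = 6.34e-06 in 8107 and 8.83e-06 in 8106). PC-3p-38261_210 was likewise listed at 0 at 35 DAF in both lines and had 10.4, 23.3 and 20.5 in 8107 and 13.9, 16.3 and 17.2 in 8106 at 15 DAF. PC-5p-55460_145 was also listed at 0 at 35 DAF and had 5.70, 23.3 and 9.66 in 8107 and 26.0, 38.1 and 22.7 in 8106 at 15 DAF. For these 3, both lines were at 0 at 35 DAF and the lines overlapped at 15 DAF. PC-3p-38261_210 lies whole within a 22 nt candidate of the table, PC-3p-93872_81, which also was listed at 0 at 35 DAF and averaged 10.8 ± 4.73 in 8107 and 4.69 ± 1.10 in 8106 at 15 DAF. The other 5 were PC-5p-5062_1316, PC-3p-47793_169, PC-3p-12707_579, PC-3p-7210_966 and PC-5p-2548_2316. PC-3p-7210_966 had 22.4, 30.0 and 20.0 in 8107 at 35 DAF, 55.5, 60.3 and 60.0 in 8107 at 15 DAF, 9.29, 14.4 and 8.13 in 8106 at 35 DAF and 47.9, 71.0 and 59.2 in 8106 at 15 DAF. It fell by 1.26 ± 0.26 in 8107 (limma adjusted p = 0.00264) and fell by 2.40 ± 0.26 in 8106 (limma adjusted p = 3.78e-05).

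**Figure D3:**
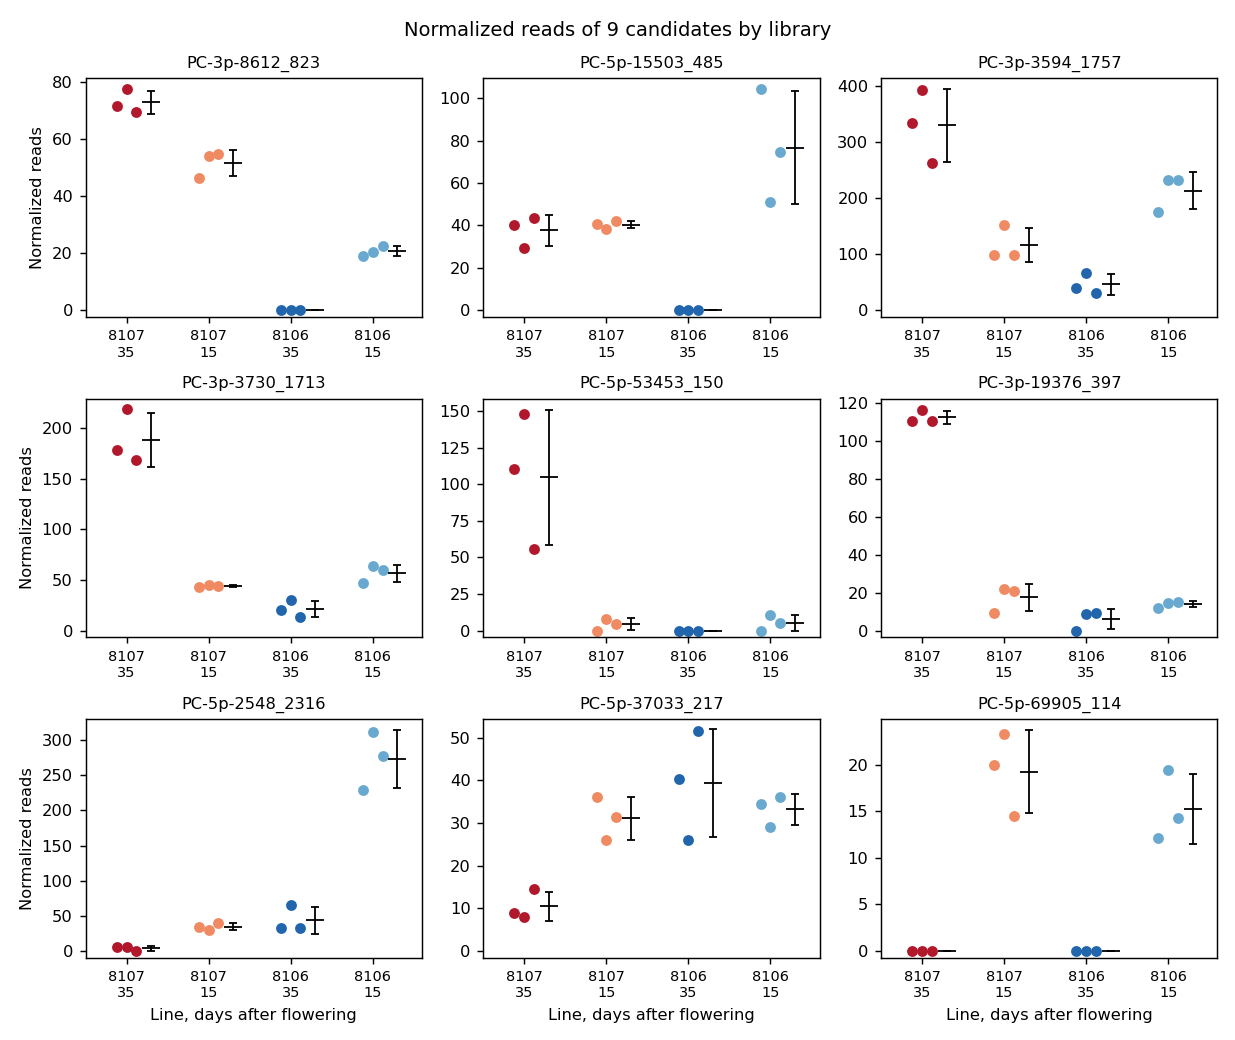
Normalized reads of 9 candidates in each library (points, by line and days after flowering), with the group mean and SD (bars, n = 3). The top panels and PC-3p-3730_1713 are low in 8106 at 35 DAF, PC-5p-53453_150 and PC-3p-19376_397 are high in 8107 at 35 DAF, and the bottom panels hold candidates that are low or listed at 0 in 8107 at 35 DAF.

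For 19 of 42 members (45.2%) the lines differed in their stage change, 16 with a difference of the changes, 8107 minus 8106, above 0 and 3 with one below 0, against 41% of all entries, 22.3% and 18.7%. The median difference was 0.87 for members and 0.52 for all entries, and 0.76 and 0.35 without entries that had a group wholly at 0. With equal totals the split was 21 and 0 (38.7% and 8.1% of all entries), and with quantile normalization it was 9 and 4 (15.9% and 19.7%). Without the entries that passed the filter through 1 group, 11 of 34 members lay above 0 and 3 below, 32.4% and 8.82%, against 21.3% and 23.3% of 300 entries. PC-3p-3594_1757 and PC-3p-3730_1713 rose in 8107 and fell in 8106, the 2 members called in opposite directions between stages, with differences of the changes of 3.75 ± 0.41 (limma adjusted p = 6.09e-05) and 3.50 ± 0.37 (limma adjusted p = 5.29e-05). In 8106 the first fell by 2.24 ± 0.29 (limma adjusted p = 0.000130) and the other fell by 1.43 ± 0.26 (limma adjusted p = 0.00139). For PC-3p-19324_398 the stages in 8107 differed by 0.23 (limma adjusted p = 0.570), while in 8106 it fell by 2.87 ± 0.30 (limma adjusted p = 3.06e-05), a difference of the changes of 3.10 ± 0.43 (limma adjusted p = 0.000247). In PC-3p-8612_823 and PC-5p-15503_485 the 8106 libraries at 35 DAF were listed at 0, while in 8107 the stages differed by 0.49 without overlap (limma adjusted p = 0.0932) for the first and overlapped for the other. These line and stage contrasts share libraries, so they are not independent of each other. Among the 18 members higher in 8107 at 35 DAF, 11 rose in 8107, 9 fell in 8106 and 2 did both. The same counts were not made over all entries, so they are not read as a result about the members. Of the 11, PC-5p-53453_150, PC-5p-118138_60, PC-5p-102778_72 and PC-3p-70396_113 passed the filter only through 8107 at 35 DAF, a group both contrasts share.

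**Figure D4:**
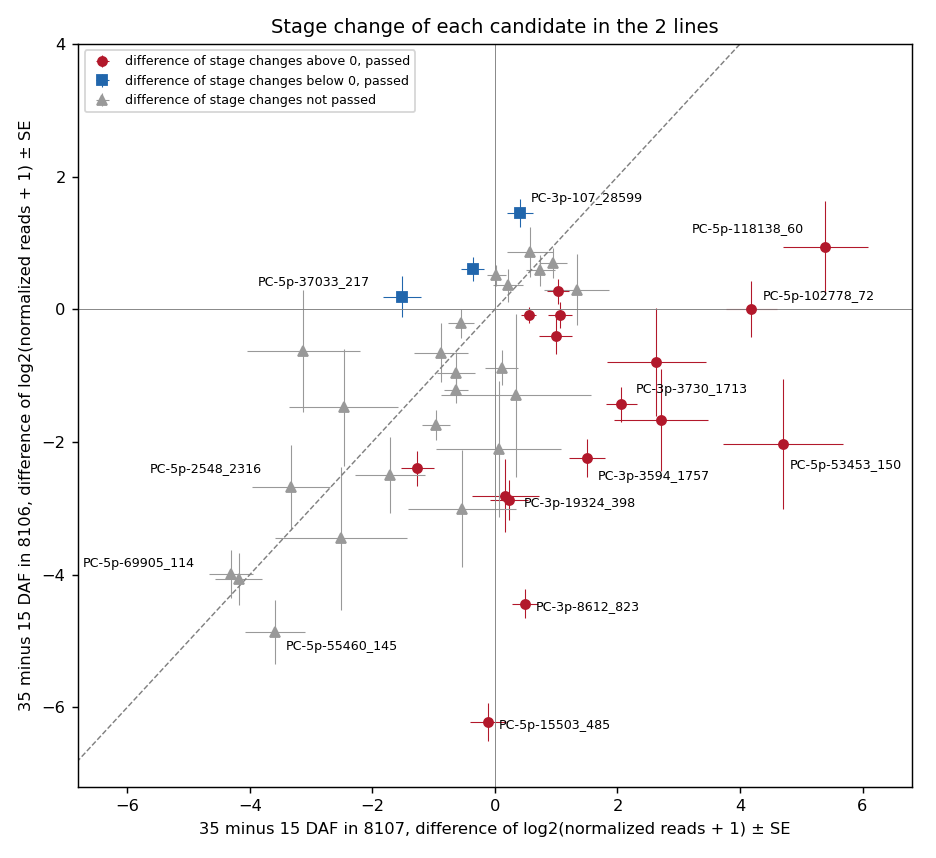
Stage change of the 42 tested candidates, 35 minus 15 DAF, in 8107 (horizontal) and in 8106 (vertical), as differences of log2(normalized reads + 1) with SE from limma. Points right of and below the dashed line of equal change moved further up, or less far down, in 8107. Round points mark the 16 candidates with a passed difference above 0, and square points the 3 below 0.

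The 3′ arm members held 12 of 23 higher and 1 lower in 8107 at 35 DAF, and the 5′ arm members 6 of 19 higher and 3 lower. By first base, 6 of 8 members beginning with A were higher there, as were 6 of 18 beginning with T, 4 of 10 with C and 2 of 6 with G. Of all 395 entries tested, 32.2% were higher and 20.3% lower in 8107 at 35 DAF. The higher members include PC-5p-53453_150, PC-5p-118138_60, PC-5p-102778_72, PC-3p-70396_113 and PC-3p-105678_70, which passed the filter only through 8107 at 35 DAF. Whether the arms or first bases differ was not tested. Predicted candidates of 22 nt had 9 of 26 higher and 7 lower in that comparison, and those of 23 to 25 nt had 6 of 87 higher and 8 lower.

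Presence in a library includes the 23 members below the filter. Members were listed in all 3 libraries of a group 39 times in 8107 and 27 times in 8106 at 35 DAF. These are 60% and 41.5% of members, against 44.4% and 34.5% of all 795 sequences. At 15 DAF members were so listed 42 times in 8107 and 43 times in 8106 (64.6% and 66.2%, against 41.8% and 47%). They were listed in no library of the group 10 times in 8107 and 22 times in 8106 at 35 DAF (15.4% and 33.8%, against 25.7% and 23.3% of all 795 sequences), and 14 times in 8107 and 13 times in 8106 at 15 DAF (21.5% and 20%, against 34% and 23.9%). The most members at 0 thus lay in 8106 at 35 DAF, whose libraries summed to 1482576 to 3243623 estimated reads, against 580011 to 1178757 in 8107 at 35 DAF. Of all 795 sequences, 10 were listed only in 8107 at 15 DAF and 24 only in 8106 at 15 DAF. Another 35 were listed only in 8106 at 35 DAF, and no member was listed only in any of these groups. In 8107 at 35 DAF 7 members (10.8%) were listed and in no other group, against 68 of all 795 sequences (8.55%). Besides PC-5p-102778_72 these were PC-3p-229639_21 (10.4, 5.37 and 12.8 normalized reads), PC-3p-180827_32 (5.96, 14.8 and 7.21), PC-5p-245417_18 (22.4, 15.2 and 0), PC-5p-252631_17 (0, 12.5 and 14.4), PC-3p-192338_29 (4.47, 13.4 and 0) and PC-3p-358709_7 (0, 12.5 and 0). For comparison, the lowest listed values of the 3 libraries were 2.69 to 4.81 normalized reads. No member was at 0 throughout 8107, against 13.6% of all sequences, and 8 (12.3%) were at 0 throughout 8106, against 11.7%. The members below the filter reached 32.8 normalized reads at most, in PC-5p-158914_39, and 12 of the 23 had their highest group mean in 8107 at 35 DAF. With no filter, 26 of 65 members were higher and 4 lower in 8107 at 35 DAF (20.5% and 9.81% of all entries).

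The predicted hairpins of 16 members had an entry for the other arm as well, in 13 hairpins, of which 3 had members on both arms. PC-5p-65_46562 and PC-3p-1045_4577, of the hairpin numbered 39 in the table, paired at 19 of 19 facing bases with overhangs of 2 bases at both 3′ ends, the geometry a Dicer-like enzyme leaves. PC-5p-158914_39 and PC-3p-2930_2072, of hairpin 17, paired at 17 of 17 facing bases with overhangs of 4 bases. PC-5p-5062_1316 and PC-3p-47793_169, of hairpin 100, had 19 Watson-Crick pairs and 1 G-U pair over 21 facing bases with blunt ends when aligned without gaps. In hairpin 39 the 5′ arm was the more abundant in every library, with a ratio over the 3′ arm of 5.81 ± 1.18 in 8107 and 12.7 ± 5.53 in 8106 at 35 DAF, and 5.03 ± 0.329 in 8107 and 7.55 ± 1.50 in 8106 at 15 DAF (SD, n = 3 each). Over the 12 libraries it ran from 4.49 to 18.0. The arms did not keep step between the lines at 35 DAF, since PC-3p-1045_4577 was higher in 8107 and PC-5p-65_46562 overlapped.

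In hairpin 100 both arms passed as falls with stage in both lines as deposited, and in 8107 neither did with equal totals. PC-5p-5062_1316 had 182, 205 and 173 normalized reads in 8107 at 35 DAF and 262, 359 and 262 in 8107 at 15 DAF, and 139, 198 and 123 in 8106 at 35 DAF and 318, 369 and 372 in 8106 at 15 DAF. PC-3p-47793_169 had 6.71, 32.7 and 16.8 in 8107 at 35 DAF and 56.5, 57.5 and 47.5 in 8107 at 15 DAF, and 10.5, 20.8 and 4.07 in 8106 at 35 DAF and 59.0, 57.5 and 63.8 in 8106 at 15 DAF. No stage overlapped another within a line for either arm. The 5′ arm fell by 0.64 ± 0.19 in 8107 (limma adjusted p = 0.0215, and 0.0567 to 0.0828 without replicate 1 or 3 at 35 DAF or replicate 2 at 15 DAF of 8107) and fell by 1.22 ± 0.19 in 8106 (limma adjusted p = 0.000535). The 3′ arm fell by 1.71 ± 0.58 in 8107 (limma adjusted p = 0.0330, and 0.0648 to 0.122 without replicate 1 or 3 at 35 DAF or any single replicate at 15 DAF of 8107) and fell by 2.50 ± 0.58 in 8106 (limma adjusted p = 0.00600). With equal totals the differences in 8107 were −0.31 for the 5′ arm (limma adjusted p = 0.149) and −1.41 for the 3′ arm (limma adjusted p = 0.0575), and voom on the estimated reads also ended both (limma adjusted p = 0.199 and 0.0665). In hairpin 17 the arms differed, as PC-5p-158914_39 was listed in 8107 alone, with 32.8, 18.8 and 0 at 35 DAF and 6.65, 4.11 and 4.83 at 15 DAF.

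**Figure D5:**
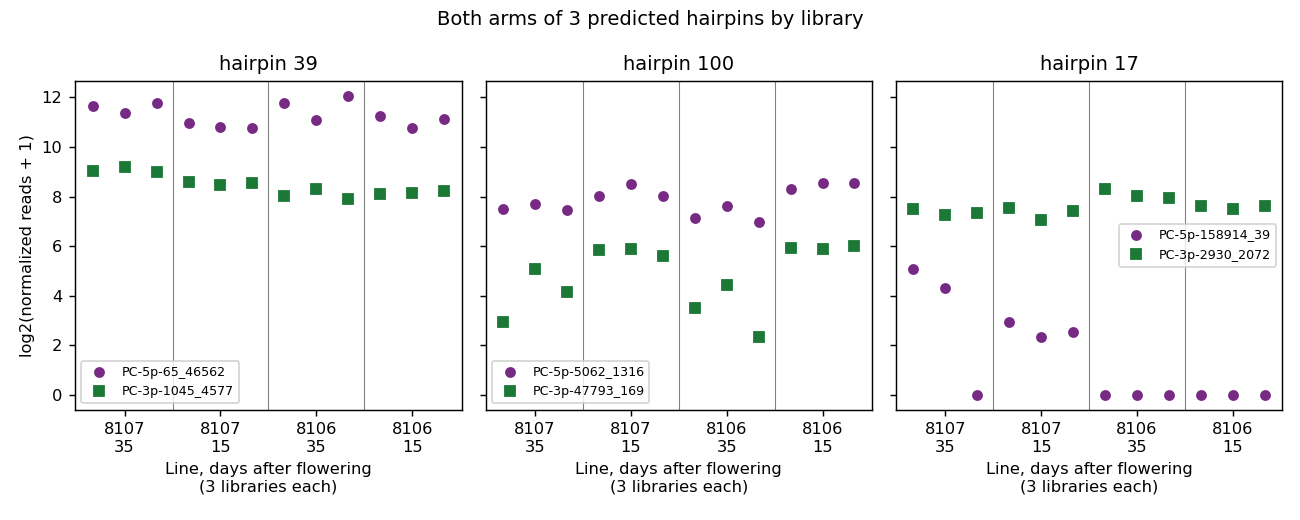
log2(normalized reads + 1) of the 5′ arm (circles) and 3′ arm (squares) of 3 predicted hairpins in 12 libraries, in groups by line and days after flowering. The 5′ arm is the higher in hairpins 39 and 100, the 3′ arm in hairpin 17, where the 5′ arm is listed at 0 in every 8106 library.

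Other partners were entries of other lengths. The 24 nt partner of PC-5p-53453_150, PC-3p-23476_334, had 359, 281 and 401 normalized reads in 8107 and 0 in all 3 libraries of 8106 at 35 DAF, and 53.2, 45.2 and 61.2 in 8107 and 89.2, 37.4 and 78.1 in 8106 at 15 DAF. Both arms of that hairpin were thus high in 8107 at 35 DAF and listed at 0 in 8106 at 35 DAF (limma adjusted p = 7.07e-09 for the partner). The 22 nt partner of PC-5p-102778_72, PC-3p-239605_19, averaged 15.1 ± 9.16 in 8107 at 35 DAF and was listed at 0 in the other groups, as was the member itself. By contrast, the 22 nt partner of PC-5p-55460_145, PC-3p-2588_2288, stayed listed at 35 DAF, with 70.5 ± 6.98 in 8107 and 307 ± 19.8 in 8106, and averaged 356 ± 36.8 in 8107 and 422 ± 49.2 in 8106 at 15 DAF. For PC-3p-19324_398 the ratio of its 22 nt 5′ partner over it was 4.00 ± 0.542 in 8107 and 15.5 ± 7.08 in 8106 at 35 DAF, and 5.43 ± 1.76 in 8107 and 3.30 ± 0.604 in 8106 at 15 DAF.

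Degradome sites were listed for 14 of the 65 members, 10 of which had passed the filter, against 9 of the 33 predicted candidates of 22 nt and 6 of the 279 of 23 to 25 nt. The share over all 795 sequences was not counted. The table names no library, so a site cannot be placed in a line or stage. The 14 members had 102 distinct sites, counted per transcript and each in a different transcript, and 17 of them were listed 2 times. Transcripts with the same symbol often listed the same range and cut, so the 102 may overstate the number of separate targets. Whether transcripts that share a symbol come from separate genes was not tested. Each site carries an alignment score, as deposited, for which a lower value is a closer match and 4 the highest in the table. Of the 102 sites 75 had a score of 4 and 27 a lower one, the best being 3, and none had a score of 2 or less, against 432 of 2497 sites in the whole table. The listed cut lay 9 bases before the end of the listed pairing range in 95 sites, 8 in 5 and 10 in 2, which is opposite base 10 of the small RNA in the 95.

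Among regulators of transcription, PC-3p-8612_823 had sites in 4 transcripts with the symbol SCL6, all with a score of 4 and all listed 2 times. Its near match mdm-MIR171f-p3 differs only at the first 2 bases and averaged 590 normalized reads over all libraries, against 36.4. A listed cut does not show which of such near matches made it. PC-3p-135887_49 had 3 sites in transcripts named ATHB-14, a homeodomain-leucine zipper factor of leaf and embryo polarity in Arabidopsis, with scores of 3.5 to 4 and all listed 2 times. That candidate was low, with 14.9, 11.6 and 9.61 normalized reads in 8107 and 0 in 8106 at 35 DAF, and 0 in 8107 and 0, 8.31 and 6.72 in 8106 at 15 DAF. PC-5p-5478_1230 had 1 site in ABI3, a regulator of seed maturation in Arabidopsis, with a score of 3.5, and 2 in transcripts named DIVARICATA, a MYB-type factor known from snapdragon, with a score of 4.

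PC-5p-40313_200, of 20 nt, had a site in GY1, a glycinin, a storage protein of legume seeds, with a score of 4 and listed 2 times. That candidate had 28.3, 21.5 and 25.6 normalized reads in 8107 and 11.3, 10.7 and 14.9 in 8106 at 35 DAF, and 10.4, 11 and 15.3 in 8107 and 13.9, 18.0 and 17.6 in 8106 at 15 DAF, and so was highest in 8107 at 35 DAF with no overlap between lines there (limma adjusted p = 0.0113, and 0.132 with median centring). PC-5p-15503_485 had 3 sites in transcripts named SMC3, a cohesin subunit that holds sister chromatids together. PC-5p-2548_2316 had 1 in HSC-2, a heat shock cognate protein, and PC-3p-19376_397 had 1 in PERK13, a receptor-like kinase. PC-5p-5062_1316 had 4 in transcripts named ARA12, a subtilisin-like protease, all with the same range and cut. It had 1 each in Cdk6, PKH2 and SMK1, which listed the same range and cut and so may not be separate targets. All of these had a score of 4, as did those of PC-3p-7210_966 in 2 transcripts named CHI3 and of PC-3p-133580_51 in 4 named TIF3C1, a subunit of a translation initiation factor. PC-3p-106691_69, PC-3p-86536_89 and PC-5p-170344_35 had 2, 1 and 2 sites, also with a score of 4.

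PC-3p-55057_146 alone accounted for 68 of the 102 sites, with scores from 3 to 4. Sets of these, such as those in the 5 transcripts named ICR4, listed the same range and cut, so they may not be 68 separate targets. The candidate's sequence, printed above, is made almost wholly of T and C. Its named transcripts carried 21 symbols, though some, such as CCNL1, CDK11B and snwA, listed the same range and cut. The lowest score was in RBM39, an RNA-binding splicing factor, and in PSRP1, a ribosome-associated protein of plastids. The named transcripts included 5 of CDC48, an ATPase that unfolds proteins, and 4 of PAC. The candidate had 0, 8.95 and 11.2 normalized reads in 8107 at 35 DAF and 20.9, 34.2 and 28.2 in 8107 at 15 DAF, and 12.1, 7.37 and 0 in 8106 at 35 DAF and 72.5, 37.4 and 50.4 in 8106 at 15 DAF. Each line was lower at 35 DAF in every library. In 8107 the stage difference was −2.51 (limma adjusted p = 0.0826), and in 8106 it fell by 3.46 ± 1.07 (limma adjusted p = 0.0279, and 0.0505 to 0.0845 without replicate 3 at 35 DAF or any single replicate at 15 DAF of 8106).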

How the data were processed

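Per the labels' protocols, the TruSeq small RNA kit was used for the libraries of whole seeds, and Bowtie is named, without its version or use, in the submitters' processing notes. The values of the small RNA table are a signal, normalized reads of each library as deposited by the authors. How they were normalized, the genome build and the miRNA caller are not given in the sources used here. Of the values of a library, 98.2 to 99.4% were whole multiples of 1 step within 0.02 steps, and dividing by the step gave estimates of 580011 to 3243623 reads a library, which were used for the voom alternative and as a guide to depth. The degradome table gives an alignment score per small RNA and site, as the authors deposited it, with no library. No genome was used, and 0 of the 102 transcripts with a member's site matched the reference gene table, so symbols are those of the authors' table and no positions are given.

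The 1082 lines of the small RNA table were reduced to 795 distinct sequences, and the predicted candidates were read by their own header line, which is shifted by 1 column against the first. No 2 members had identical values in all 12 libraries. limma 3.58.1 in R 4.3.3 was fitted with a trend to log2(normalized reads + 1), with 1 mean per group over all 12 libraries and no replicate block, for the 395 entries at 10 or more in at least 3 libraries, with Benjamini-Hochberg adjustment over all of them and adjusted p under 0.05. Changes of low entries are understated on this scale, and where a group is listed at 0 its size depends on the pseudocount of 1, so no fold is given. Such a group also shows no spread among its libraries, so p-values that involve it may be too small. The procedure was tested on simulated data, with a pass mark that was lowered after a first run missed a stricter one. The 5 comparisons were the lines at each stage, the stages within each line, and the gap between the lines' stage changes. The rule for named members took, per comparison, the 6 highest and 6 lowest differences among passed members with no overlap between the groups, the 8 smallest p for the difference of the stage changes, the 10 most abundant, those with the best degradome scores, and hairpin pairs. Members described outside it, such as those near a named miRNA or listed in 1 group, were chosen after their values were seen. The counts without entries that passed the filter only through their highest group (fewer than 3 libraries at 10 or more outside it) were also chosen after seeing the data. The members, lists and rule were chosen with earlier results of these data known.

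Deviations of same-numbered libraries from their group means correlated with r of 0.04 to 0.68 over 18 pairs of libraries, 17 of them above 0.1. Over 36 pairs with different numbers the median r was −0.23. Deviations within a group cancel out, so such negative values follow from positive ones for the same number and are no separate evidence of pairing. Of the 36 pairs, 8 were above 0.1. The highest was 0.59, for replicate 3 at 35 DAF and replicate 1 at 15 DAF of 8106, against 0.12 for replicate 3 at both stages. A number may therefore not mark a true pair, and p-values with the block rest on that assumption. Every same-numbered pair was above 0.1 for the lines at 15 DAF and for the stages within each line, where the numbers were taken to pair the samples. The exception was replicate 1 of the lines at 35 DAF, so for that comparison and the difference of the stage changes the samples share only a number. The pairing comes from the data, since the labels do not say what a number marks.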

Additional observations from a re-analysis of the deposited data

Results flagged for a closer look

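The difference of the stage changes, 8107 minus 8106, passed for 19 of 42 members, and each is given here as a difference of log2(normalized reads + 1) from limma. It lay above 0, a larger rise or a smaller fall in 8107, for 16 members. Among these it was 6.74 for PC-5p-53453_150, 6.11 for PC-5p-15503_485, 4.93 for PC-3p-8612_823, 4.46 for PC-5p-118138_60 and 4.19 for PC-5p-102778_72, and each of these has a group listed at 0, so that its size depends on the pseudocount. PC-5p-53453_150, PC-5p-118138_60, PC-5p-102778_72, PC-3p-70396_113 and PC-3p-48081_168 passed the filter only through their highest group, so their tests are not independent of that choice. It was 4.37 for PC-3p-19376_397, the candidate near a miR530 arm, 3.75 for PC-3p-3594_1757 and 3.50 for PC-3p-3730_1713, which share an 11-base stretch. It was 3.43 for PC-3p-70396_113, 3.10 for PC-3p-19324_398 and 2.98 for PC-3p-48081_168. Smaller differences were 1.39 for PC-5p-40313_200, which has a degradome site in a glycinin transcript, 1.15 for PC-3p-3227_1921, 1.13 for PC-3p-7210_966, 0.76 for PC-3p-12760_577 and 0.63 for PC-3p-1045_4577, the 3′ arm of hairpin 39. It lay below 0 for PC-5p-37033_217 at −1.71, PC-3p-107_28599 at −1.04 and PC-5p-5478_1230 at −0.97, and with equal totals none of these 3 passed. Of the 16 above 0, all passed with equal totals, but 7 did not under quantile normalization and 4 did not with median centring. For 3 members single libraries decided the call, which ended in 9 of 12 omissions for PC-3p-70396_113, 8 for PC-3p-7210_966 (limma adjusted p up to 0.0725) and 7 for PC-3p-12760_577 (up to 0.0787).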

How the results depend on the processing

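Of 93 member results that passed in the 5 comparisons, 55 passed in the same direction under every other setting that tested them (37 of these were tested under all 23 settings, and 18 under 21 or 22, with no value under the filter in 6 libraries or with the compared libraries alone), 61 under the 3 other scalings and 72 under every omission of 1 library. These counts were not made over all entries, so they have no background. The 55 include results of PC-5p-102778_72, PC-5p-118138_60, PC-5p-53453_150, PC-5p-55460_145 and PC-3p-70396_113, which passed the filter only through 1 group. These members had no value under the filter in 6 libraries. The count of members that passed between the lines at 15 DAF, 6 of 42, became 12 with a pseudocount of 5. It was 10 of 34 with the filter applied in 6 libraries, 12 with the compared libraries alone and 12 with voom on the estimated reads. With the replicate block it was 10, while the share of all entries went from 22.5% to 36.7%. For the other settings named here and the omissions that follow, the share of all entries was not counted, so these counts have no background beside them. Leaving out 1 library gave counts of 20 to 24 between the lines at 35 DAF, 5 to 9 between them at 15 DAF, 19 to 25 between the stages in 8107, 15 to 23 between them in 8106, and 16 to 20 for the difference of the stage changes. Directions reversed for PC-3p-2930_2072 and PC-5p-5478_1230. With equal totals and with voom, the line difference at 35 DAF became 0.33 and 0.31 for PC-3p-2930_2072 and 0.0241 and 0.0576 for PC-5p-5478_1230. The stage change in 8106 became −0.0933 and −0.0914 for PC-3p-2930_2072 under these settings and −0.00601 for PC-5p-5478_1230 with voom, and the difference of the stage changes of PC-5p-5478_1230 became 0.0121 with voom. The causes were not tested. The replicate block ended none of the 93 calls. Where numbers alone were shared, it gave 25 members between the lines at 35 DAF, against 22 without it. For the difference of the stage changes it gave 22, against 19. The shares of all entries were not counted for these. The quasi-likelihood count test on recovered reads was not run. Entries listed at 0 may have had a few reads, so the depth does not show absence, and with 3 libraries a group of unstated origin small differences could be missed.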
